A study of Mus musculus with 16 samples.

Results

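The genes described here encode 10 inhibitory or checkpoint receptors of myeloid cells: Havcr2, Cd274, Lag3, Cd22, Cd200r1, Lilrb4a, Pilra, Pirb, Sirpa and Siglece. They were taken by symbol from a table of read counts of microglia, which lists 55385 genes. All 10 were in the table, and all 10 passed the filter on low counts that left 14513 genes for testing. Most of these receptors carry immunoreceptor tyrosine-based inhibitory motifs (ITIMs) in the cytoplasmic tail. When a Src-family kinase phosphorylates an ITIM, the receptor recruits the phosphatases SHP-1, SHP-2 or SHIP-1, which oppose signals from activating receptors that pair with DAP12 or the Fc receptor gamma chain and act through Syk. Microglia use such receptors to read sialic acids, MHC class I, CD47 and CD200 on neighboring cells, and checkpoint molecules such as PD-L1 (Cd274), TIM-3 (Havcr2) and LAG-3 (Lag3) are best known from T cell inhibition.

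RNA-Seq was performed on brain cells of mice at 20 weeks of age, bound to anti-CD11b magnetic beads after removal of meninges and choroid plexus. The paper names female 5xFAD mice among the animals obtained for its crosses. The 4 genotypes, each with 4 libraries, were WT, Card9-/-, 5xFAD and Card9-/-5xFAD. The 5xFAD mice carry human transgenes, APP among them, with familial Alzheimer's disease mutations, driven in neurons by the Thy1 promoter, so that microglia meet Aβ made by other cells. CARD9 is an adaptor that relays signals of Syk-coupled receptors to NF-κB, and its deletion was germline, so every cell type of those mice lacks it by label. No treatment is given in the labels, and WT and 5xFAD mice carried intact Card9 alleles. Reads on genes ranged from 2970148 to 19333325 per library (median 7944265). Nothing in the labels ties a library to a single mouse, so the p-values below measure the spread between libraries of a genotype, which may in part be technical.

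All 9 microglia markers, Tmem119, P2ry12, Cx3cr1, Csf1r and Sall1 among them, were detected in every library, with a summed level of 13361 to 32377 CPM (counts per 10 to the power of 6 reads, on TMM library sizes) without the transgenes and 12936 to 31112 CPM with them, and 0 of the 9 passed the test without a replicate block. Card9 itself was counted in all 16 libraries. Its level ranged from 13.6 to 51.3 CPM in WT, from 16.7 to 34.8 CPM in libraries labelled Card9-/-, from 15.6 to 33.5 CPM in 5xFAD and from 9.73 to 33.7 CPM in libraries labelled Card9-/-5xFAD. The log2 fold change of Card9 was -0.34 ± 0.45 (SE; edgeR adjusted p = 0.97) for Card9-/- against WT and -0.44 ± 0.45 (adjusted p = 0.993) for Card9-/-5xFAD against 5xFAD. Counts summed over a gene cannot tell a deleted exon from a kept one, and the strand setting is not given, so that reads of the antisense gene Gm13562 may be included. The Card9 genotypes below therefore rest on the labels.

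The promoters of 6 members (Havcr2, Cd274, Cd22, Pilra, Pirb and Siglece) were matched in RefSeq's table for GRCm38.p6. The 250 bases before the annotated start are shown for the 4 receptors that passed the test and for Havcr2, the steadiest of the 10, written 5′ to 3′ on the strand of the gene. Capitals mark matches to the motifs searched. The start used for Cd22 lies inside the span of the gene in GENCODE M21 (chr7:30865402-30880342), so its window is within the gene.
Cd274, chr19:29367188-29367437, plus strand: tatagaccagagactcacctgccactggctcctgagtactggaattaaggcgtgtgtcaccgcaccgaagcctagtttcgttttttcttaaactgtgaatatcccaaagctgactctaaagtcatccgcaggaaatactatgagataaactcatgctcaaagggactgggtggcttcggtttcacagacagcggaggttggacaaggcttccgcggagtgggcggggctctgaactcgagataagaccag
Cd22, chr7:30879029-30879278, minus strand: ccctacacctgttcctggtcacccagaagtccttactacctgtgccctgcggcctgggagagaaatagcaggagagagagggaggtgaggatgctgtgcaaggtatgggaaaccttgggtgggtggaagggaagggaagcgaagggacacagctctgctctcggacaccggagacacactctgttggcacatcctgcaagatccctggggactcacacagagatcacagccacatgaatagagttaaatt
Pirb, chr7:3720383-3720632, minus strand: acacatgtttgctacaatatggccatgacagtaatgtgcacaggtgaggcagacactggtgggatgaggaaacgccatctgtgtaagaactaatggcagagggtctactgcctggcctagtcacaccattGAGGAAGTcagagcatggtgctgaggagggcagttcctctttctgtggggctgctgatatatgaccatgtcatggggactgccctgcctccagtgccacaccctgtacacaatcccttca
Siglece, chr7:43660162-43660411, minus strand: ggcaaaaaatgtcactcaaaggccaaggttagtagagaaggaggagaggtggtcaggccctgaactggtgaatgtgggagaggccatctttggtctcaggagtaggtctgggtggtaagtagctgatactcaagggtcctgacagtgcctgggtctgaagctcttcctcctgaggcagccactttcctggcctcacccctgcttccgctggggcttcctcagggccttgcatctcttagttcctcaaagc
Havcr2, chr11:46454681-46454930, plus strand: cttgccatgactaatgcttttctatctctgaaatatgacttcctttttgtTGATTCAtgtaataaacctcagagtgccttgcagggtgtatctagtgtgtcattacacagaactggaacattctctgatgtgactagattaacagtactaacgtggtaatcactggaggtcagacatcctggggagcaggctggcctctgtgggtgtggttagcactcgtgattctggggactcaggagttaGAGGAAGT
The motifs, searched on both strands, were a PU.1 motif (GAGGAAGT), an AP-1 motif (TGANTCA), an E-box (CACGTG), a GAS motif (TTCNNNGAA), an ISRE motif (TTTC, any 2 bases, TTTC) and a kappaB motif (GGGA, any base, TTTCC). PU.1 is the lineage factor of microglia and other myeloid cells. Its motif stood in the windows of Pirb, at 120 to 113 bases before the start, and of Havcr2, at 8 to 1 bases before the start, against 2.44% of all 32851 promoter windows. Havcr2 also held an AP-1 motif at 200 to 194 bases, a motif in 6.75% of windows. Pilra, not shown, held an ISRE motif on the minus strand of the gene at 178 to 169 bases, a motif in 2.98% of windows. None of these letters stood in the windows of Cd274, Cd22 or Siglece, where E-box (6.02%), GAS (7.02%) and kappaB (0.356%) motifs were also not found. A match describes letters only, and these windows cover only part of each regulatory region.

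The first question was how the receptors responded to the 5xFAD transgenes. Averaged over both Card9 genotypes, 4 of the 10 receptors passed the test at an adjusted p below 0.1, against 11.3% of all genes tested: Cd274 and Cd22 rose (5.62% of all genes did so), and Pirb and Siglece fell (5.73% of all genes). The other 6 did not pass, and at an unadjusted p below 0.05 the number was also 4, against 22.8% of all genes. The median log2 fold change of the 10 was 0.06, and the median of all genes tested was -0.15 (-0.08 with DESeq2 size factors), so changes are to be read against a center slightly below 0. In the separate responses, Cd22 rose and Pirb fell for 5xFAD against WT (2 of 10, against 2.09% of all genes, of which 1.57% rose and 0.524% fell), and 4 of 10 had an unadjusted p below 0.05, against 10.8%. Cd274 and Cd22 rose for Card9-/-5xFAD against Card9-/- (2 of 10, against 1.97% of all genes, of which 1.49% rose and 0.482% fell), and 4 of 10 had an unadjusted p below 0.05, against 12.2%. Libraries of equal replicate number deviated together within WT and 5xFAD and within Card9-/- and Card9-/-5xFAD, so each response was also fitted with these numbers as blocks, a fit chosen after the data were seen. With the block 5 of 10 receptors passed in the averaged contrast, against 41.9% of all genes: Cd274, Cd22 and Pilra rose, and Pirb and Siglece fell. For 5xFAD against WT 5 of 10 passed with the block (16% of all genes), with Cd274, Lag3 and Cd22 higher and Pirb and Siglece lower. For Card9-/-5xFAD against Card9-/- 5 of 10 passed (20.4% of all genes), with Cd274, Cd22 and Pilra higher and Pirb and Siglece lower. With the block and the length slope described below as a covariate, Cd274 and Cd22 passed in the averaged contrast (2 of 10, against 761 of all 14513 genes). Pirb and Siglece did not pass in that fit. In bulk RNA, fewer cells of a type and less RNA per cell cannot be told apart.

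**Figure D1:**
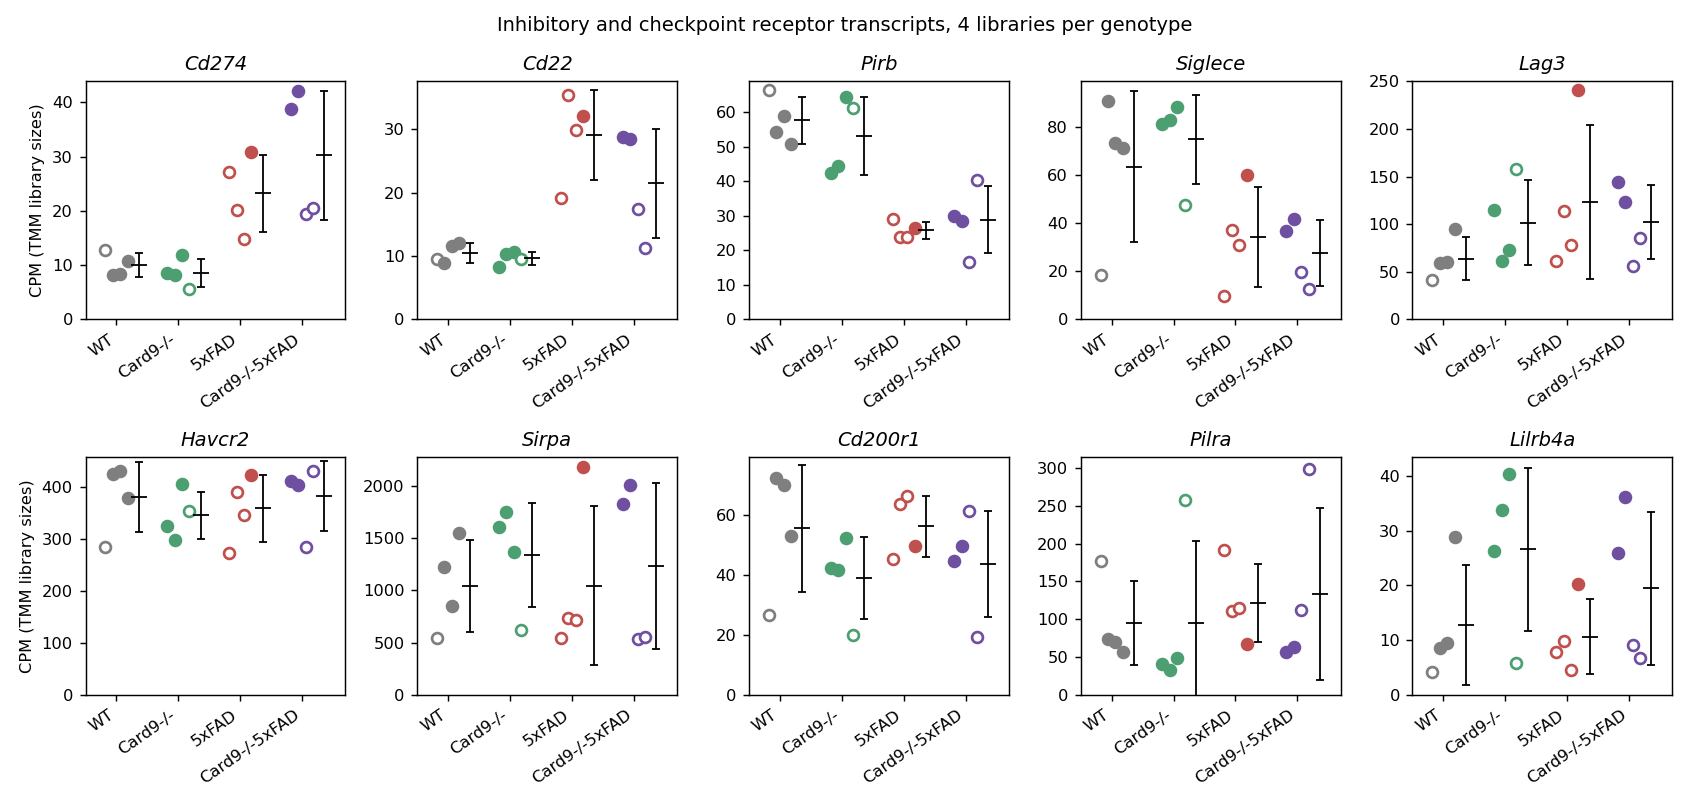
CPM of each receptor transcript (vertical axis, linear, from 0) in each of the 16 libraries, by genotype. Points are libraries, open where the slope of expression on transcript length was below -0.1, and the bars beside them are the mean and SD of the 4 libraries (the SD of Pilra in Card9-/- runs past 0). Cd274 was at least 14.7 CPM in every library with the transgenes and at most 12.7 CPM in every library without them.

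Cd274 encodes PD-L1, the ligand that engages PD-1 on T cells. Its level was 12.7, 8.04, 8.27 and 10.8 CPM in the WT libraries, and 8.53, 8.07, 11.7 and 5.56 CPM in the libraries labelled Card9-/-. With the transgenes it was 27.1, 20.2, 14.7 and 30.8 CPM in 5xFAD, and 38.8, 42.1, 19.5 and 20.4 CPM in Card9-/-5xFAD. The lowest library with the transgenes therefore lay above the highest without them. Cd274 rose by 1.52 ± 0.24 on the log2 scale (SE, n = 8 against 8; 2.88-fold; edgeR adjusted p = 0.000971). Such separation of 8 libraries from 8 held for 2 of the 10 receptors (Cd274 and Pirb), against 1.66% of all genes. In the separate responses the log2 fold change was 1.82 ± 0.34 (adjusted p = 0.0113) for Card9-/-5xFAD against Card9-/- and 1.23 ± 0.34 for 5xFAD against WT, which missed the threshold (adjusted p = 0.105). The latter passed with the replicate block (1.20, adjusted p = 0.0159), with DESeq2 on all libraries (adjusted p = 0.00755) and without Card9-/- replicate 4 (0.0751) or Card9-/-5xFAD replicate 4 (0.0864). Cd274 lies at chr19:29367455-29388095 (GRCm38, plus strand) and shares exon bases with the antisense gene AC119228.1.

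Lag3, a receptor for MHC class II, did not pass the test. It was 41.4, 59.0, 60.0 and 94.6 CPM in WT and 115, 60.6, 72.5 and 158 CPM in Card9-/-. In 5xFAD it was 61.4, 113, 78.4 and 241 CPM, and in Card9-/-5xFAD it was 144, 123, 56.1 and 85.3 CPM. The groups overlapped, with a wide spread in 5xFAD (123 ± 81.0 CPM, SD, n = 4). The averaged log2 fold change was 0.48 ± 0.31 (edgeR adjusted p = 0.383), made of 0.95 ± 0.45 with Card9 (adjusted p = 0.457) and 0.01 ± 0.44 without (adjusted p = 0.994). With the replicate block the value with Card9 passed, at 0.82 ± 0.27 (adjusted p = 0.0797). With the block and the length slope together it was 0.77 ± 0.39 and did not pass (adjusted p = 0.404). Havcr2, the gene of TIM-3, did not pass either. It ranged from 286 to 432 CPM in WT and from 298 to 406 CPM in Card9-/-, and from 274 to 425 CPM in 5xFAD and from 285 to 432 CPM in Card9-/-5xFAD. Its averaged log2 fold change was 0.03 (95% interval -0.34 to 0.41, adjusted p = 0.932), the narrowest interval of the 10, and its SD within genotypes (0.26 on log2 CPM) was the lowest of the 10, where the median gene had 0.62.

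Cd22 encodes a Siglec, a receptor for α2,6-linked sialic acid that is also well known as an inhibitor of B cell receptor signaling. It was 9.51, 8.81, 11.6 and 11.98 CPM in WT and 8.17, 10.2, 10.5 and 9.49 CPM in Card9-/-. In 5xFAD it was 19.1, 35.5, 29.9 and 32.1 CPM, and in Card9-/-5xFAD it was 28.8, 28.4, 17.4 and 11.2 CPM. All libraries with the transgenes except Card9-/-5xFAD replicate 4 lay above all libraries without them. Cd22 rose by 1.32 ± 0.21 on the log2 scale (SE, n = 8 against 8; 2.499-fold; edgeR adjusted p = 0.00118). It was the only receptor of the 10 that passed in both separate responses, with log2 fold changes of 1.48 ± 0.30 for 5xFAD against WT (adjusted p = 0.0184) and 1.17 ± 0.30 for Card9-/-5xFAD against Card9-/- (adjusted p = 0.0811). The latter call was lost when any 1 of 11 libraries was left out (adjusted p = 0.11 to 0.26): WT replicates 2, 3 and 4, Card9-/- replicates 1, 2 and 3, 5xFAD replicates 2 and 3, and Card9-/-5xFAD replicates 1, 2 and 3. The log2 fold change without them stayed between 0.99 and 1.26. In the B cell marker list, Ms4a1 and Pax5 had at most 3 counts and Cd79a at most 17 in any library, whereas Cd79b had 26 to 1125. The summed level of the B cell marker list was 20.9 to 93.1 CPM without the transgenes (median 55.8) and 10.8 to 73.5 CPM with them (median 60.8), most of it Cd79b (10.4 to 90.6 CPM). Cd22 lies at chr7:30865402-30880342 (GRCm38, minus strand) and shares exon bases with the antisense gene Gm29439.

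Siglece, a Siglec of microglia and neutrophils with cytoplasmic ITIMs, moved the other way. It was 18.1, 90.6, 73.4 and 71.4 CPM in WT, 80.9, 82.7, 88.1 and 47.4 CPM in Card9-/-, 9.40, 37.1, 30.8 and 59.8 CPM in 5xFAD, and 36.8, 41.4, 19.5 and 12.4 CPM in Card9-/-5xFAD. WT replicate 1 and Card9-/- replicate 4 lay within the range of the libraries with the transgenes, and so the groups of 8 overlapped. In all 8 pairs of equal replicate number and Card9 genotype the library with the transgenes was the lower one. All 8 pairs also went in a single direction for Cd274, Cd22, Pirb and Pilra. The share of all genes that did so was not determined, so this count has no background to be read against. Siglece fell by 1.16 on the log2 scale (SE 0.38, n = 8 against 8; edgeR adjusted p = 0.0766). The separate log2 fold changes were -0.89 ± 0.53 (adjusted p = 0.578) with Card9 and -1.43 ± 0.54 (adjusted p = 0.257) without. With the replicate block both passed, at -0.93 ± 0.24 (adjusted p = 0.0329) and -1.53 ± 0.24 (adjusted p = 0.0021). With the block and the length slope together neither passed, at -0.61 (adjusted p = 0.417) with Card9 and -1.17 (adjusted p = 0.12) without. In that fit the averaged value was -0.89 and did not pass (adjusted p = 0.127). The averaged call was lost when any 1 of 10 libraries was left out (log2 fold change -1.18 to -1.001, adjusted p = 0.108 to 0.151): WT replicates 2, 3 and 4, Card9-/- replicates 1, 2 and 3, 5xFAD replicates 1, 2 and 3, and Card9-/-5xFAD replicate 3. Siglece lies at chr7:43651070-43660161 (GRCm38, minus strand). Pilra, which binds sialylated O-glycans, did not pass without the block. Its level was 56.9 to 177 CPM in WT, 32.3 to 257 CPM in Card9-/-, 67.3 to 192 CPM in 5xFAD and 57.1 to 299 CPM in Card9-/-5xFAD. The averaged log2 fold change of Pilra was 0.42 (95% interval -0.58 to 1.43, adjusted p = 0.633). Its level was higher with the transgenes in all 8 such pairs, and it rose by 0.57 ± 0.14 with the replicate block (adjusted p = 0.00914), by 0.72 ± 0.20 in Card9-/-5xFAD against Card9-/- (adjusted p = 0.0305). With the block and the length slope together the averaged value was 0.13 (adjusted p = 0.743). Without the block and without Card9-/- replicate 4, its second highest library, the averaged value was 1.03 (adjusted p = 0.0824). Pilra shares exon bases with Zcwpw1 on the opposite strand.

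Pirb encodes PIR-B, the mouse relative of the human LILRB receptors, which binds MHC class I and has been described as a receptor for oligomeric Aβ. It was 66.6, 54.3, 59.0 and 50.7 CPM in WT and 42.5, 44.5, 64.3 and 61.2 CPM in Card9-/-. In 5xFAD it was 29.0, 23.7, 23.9 and 26.6 CPM, and in Card9-/-5xFAD it was 29.8, 28.5, 16.7 and 40.4 CPM. Every library with the transgenes lay below every library without them. Pirb fell by 1.02 on the log2 scale (SE 0.18, n = 8 against 8; 0.493-fold; edgeR adjusted p = 0.0029). For 5xFAD against WT the log2 fold change was -1.16 ± 0.26 (adjusted p = 0.0334), a call lost without 5xFAD replicate 2, 3 or 4 (-1.13 to -1.01, adjusted p = 0.117 to 0.126). For Card9-/-5xFAD against Card9-/- it was -0.88 ± 0.26 and missed the threshold (adjusted p = 0.136), and it passed without Card9-/-5xFAD replicate 4 (-1.08, adjusted p = 0.0531) and with the replicate block (-0.91 ± 0.23, adjusted p = 0.0218). With the block and the length slope together, the averaged log2 fold change of Pirb was -0.50 ± 0.21 and did not pass (adjusted p = 0.239). In the separate responses, 4 libraries lay apart from the other 4 without overlap for Cd274, Cd22 and Pirb in 5xFAD against WT (3 of 10, against 8.04% of all genes). The same held for these 3 and Siglece in Card9-/-5xFAD against Card9-/- (4 of 10, against 7.01%). Pirb lies at chr7:3711409-3720391 (GRCm38, minus strand). It has close relatives, the activating Pira genes, and reads of near-identical stretches may be divided between them. Lilrb4a, a receptor with cytoplasmic ITIMs that is highly similar to its neighbor Lilr4b, did not pass. It was 4.23, 8.47, 9.49 and 28.9 CPM in WT, 26.3, 33.8, 40.4 and 5.89 CPM in Card9-/-, 7.73, 9.87, 4.50 and 20.3 CPM in 5xFAD, and 25.9, 36.2, 9.04 and 6.81 CPM in Card9-/-5xFAD. Its averaged log2 fold change was -0.36 (95% interval -1.36 to 0.65, adjusted p = 0.696). Lilrb4a and Lilr4b both share exon bases with the readthrough gene Gm49339, and Lilrb4a also with the antisense gene Gm40645, so its counts are uncertain.

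Sirpa and Cd200r1 read ligands that are abundant on neurons: SIRPα binds CD47, and CD200R1 binds CD200. Sirpa did not pass, with 542 to 1546 CPM in WT, 623 to 1751 CPM in Card9-/-, 547 to 2183 CPM in 5xFAD and 536 to 2006 CPM in Card9-/-5xFAD. Its averaged log2 fold change was -0.06 (95% interval -0.87 to 0.75, edgeR adjusted p = 0.946). Cd200r1 did not pass, with 26.8 to 72.4 CPM in WT, 20.0 to 52.4 CPM in Card9-/-, 45.3 to 66.2 CPM in 5xFAD and 19.2 to 61.2 CPM in Card9-/-5xFAD. Its averaged log2 fold change was 0.09 (95% interval -0.48 to 0.65, adjusted p = 0.876). Both intervals span 0 widely, so a missed threshold does not show equal levels.

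The next question was whether deletion of Card9 moved the receptors, without or with the transgenes. For Card9-/- against WT, 0 of the 10 passed, and neither did any of the 14513 genes tested with edgeR (0%), while 0 of the 10 and 597 of all genes (4.11%) had an unadjusted p below 0.05. For Card9-/-5xFAD against 5xFAD, 0 of the 10 and 0 of all genes passed (0%), and 0 of the 10 and 366 of all genes (2.52%) had an unadjusted p below 0.05. The ranges of the groups overlapped for all 10 receptors in both contrasts, where 2.66% and 1.89% of all genes had ranges apart. DESeq2 called 5 and 2 genes in these contrasts on all libraries and 8 and 9 on only the groups compared, and edgeR called 14 and 5 in the libraries with a length slope above -0.1, none of them among the 10. In libraries labelled Card9-/- against WT, the log2 fold changes of the receptors ran from -0.50 ± 0.38 (Cd200r1) to 1.06 ± 0.67 (Lilrb4a, 95% interval -0.36 to 2.49). In libraries labelled Card9-/-5xFAD against 5xFAD they ran from -0.43 ± 0.30 (Cd22) to 0.89 ± 0.68 (Lilrb4a, 95% interval -0.55 to 2.33).

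For the receptors that moved with the transgenes, the 95% intervals of the Card9 contrast without transgenes were -0.92 to 0.50 for Cd274, -0.76 to 0.51 for Cd22, -0.66 to 0.43 for Pirb and -0.87 to 1.35 for Siglece on the log2 scale. With the transgenes they were -0.32 to 1.09 for Cd274, -1.06 to 0.20 for Cd22, -0.39 to 0.71 for Pirb and -1.42 to 0.81 for Siglece. The interaction, which is the difference between both transgene responses, passed for 0 of the 10 and for 0 of all genes with edgeR (0%), with 0 of the 10 and 78 of all genes (0.537%) at an unadjusted p below 0.05, and DESeq2 on all libraries called 1 gene, not one of the 10. Its log2 values were 0.60 (95% interval -0.40 to 1.60) for Cd274, -0.31 (-1.20 to 0.59) for Cd22, 0.28 (-0.50 to 1.05) for Pirb, -0.55 (-2.12 to 1.03) for Siglece and -0.94 (-2.27 to 0.39) for Lag3. A difference between the transgene responses with and without Card9 was thus not detectable for any of the 10, and each of these 5 intervals reaches past a log2 value of 1 in one direction or the other. The transgene responses share their libraries with the Card9 contrasts, so these values are not independent of each other.

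**Figure D2:**
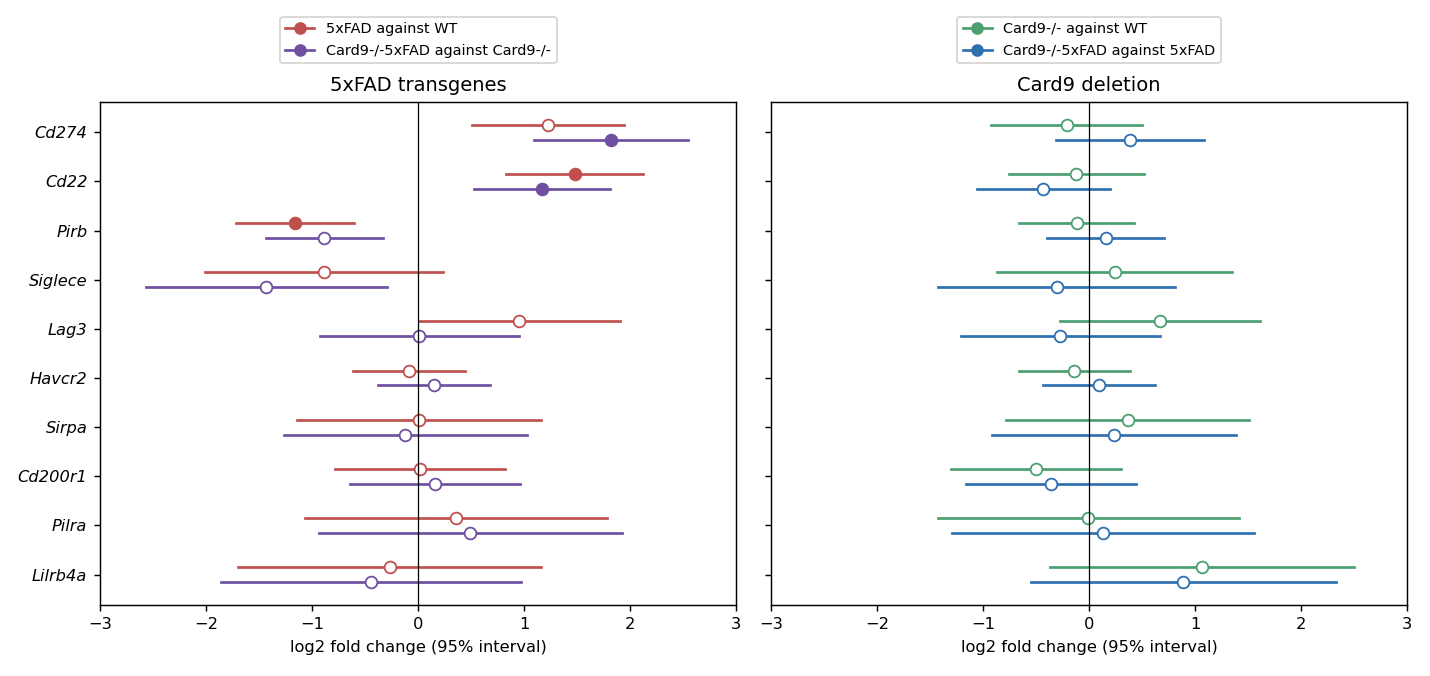
Log2 fold change of each receptor transcript with its 95% interval, for the 5xFAD transgenes (left, with and without Card9) and for Card9 deletion (right, without and with the transgenes). Filled points passed an adjusted p of 0.1: Cd22 in both transgene responses, Cd274 in the one without Card9 and Pirb in the one with Card9, and none for Card9 deletion.

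Between genes, levels were compared as CPM per kilobase of exon. In WT, Sirpa stood highest (212 ± 89.2 CPM per kb, SD, n = 4) and Havcr2 next (139.9 ± 24.9), and their ranges overlapped. Below a gap that no range bridged came Siglece (34.3 ± 17.0), Pilra (30.6 ± 17.99), Lag3 (30.2 ± 10.6), Cd200r1 (16.6 ± 6.29) and Pirb (12.9 ± 1.53), each overlapping the next in order. Below a second gap came Cd274 (2.75 ± 0.61), Lilrb4a (2.44 ± 2.10) and Cd22 (2.08 ± 0.31), which overlapped each other. The receptors that rose with the transgenes were thus among the 3 lowest in WT. In 5xFAD, Cd274 (6.41 ± 1.98) and Cd22 (5.78 ± 1.41) overlapped with Pirb (5.77 ± 0.56), while Sirpa and Havcr2 still led the order at 213 ± 156 and 132 ± 24.0 CPM per kb. The same 2 genes led in Card9-/- and Card9-/-5xFAD. Length here is that of all annotated exons of a gene in GENCODE M21, which overstates the length of the transcripts in use where a gene has many isoforms.

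**Figure D3:**
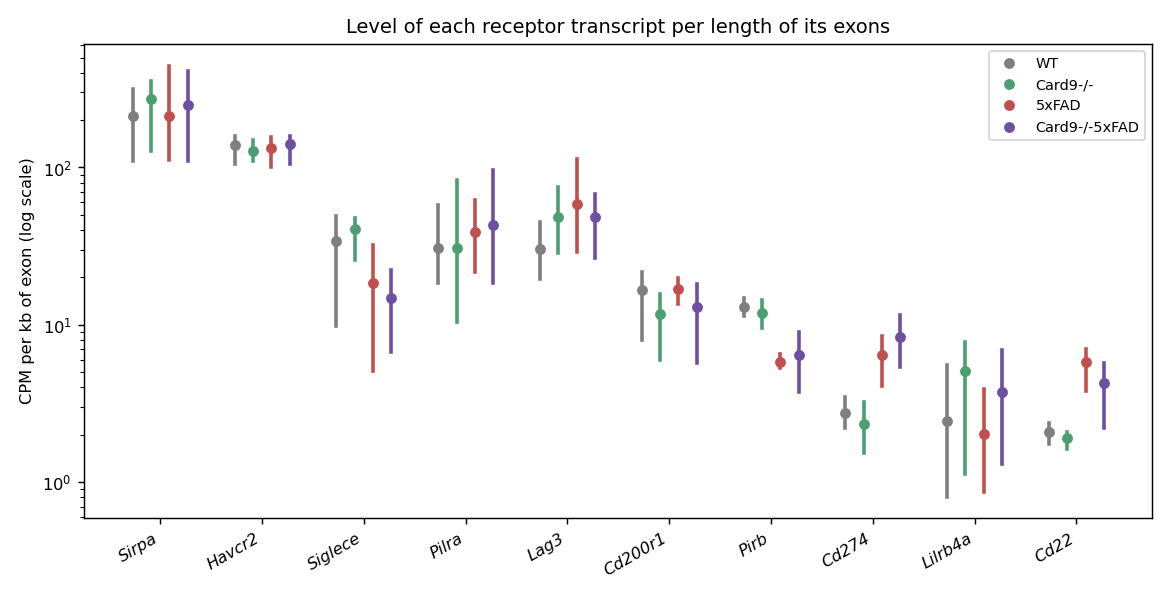
CPM per kilobase of exon (log scale) for each receptor in each genotype, in the order of WT. Dots are means of 4 libraries and lines run from the lowest to the highest library, and Sirpa and Havcr2 lie above all others in WT.

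Libraries differed in how expression depended on transcript length, a measure that RNA quality and library preparation can move. The slope of log2 CPM (minus the mean of the 16 libraries) on log2 exon length ran from -0.22 to 0.29 per library. It was below -0.1 in 7 of 16 libraries: 1 of 4 in WT, 1 of 4 in Card9-/-, 3 of 4 in 5xFAD and 2 of 4 in Card9-/-5xFAD, or 2 of 8 without and 5 of 8 with the transgenes. In these 7 libraries the mean log2 CPM was lower than in the other 9 by 1.75 for Lilrb4a, 1.61 for Siglece and 1.36 for Sirpa, and higher by 1.61 for Pilra, as differences with no test. The differences were 0.10 for Cd274, 0.20 for Cd22, -0.35 for Pirb, -0.21 for Havcr2, -0.31 for Lag3 and -0.44 for Cd200r1. With the slope as a covariate, chosen after the data were seen, the averaged log2 fold changes of Cd274, Cd22, Pirb and Siglece still passed without the replicate block, and Sirpa passed at 0.44 (edgeR adjusted p = 0.0812). More genes passed in general in that fit, 3556 of all 14513 against 1647 without the covariate. With the block and the covariate, the averaged log2 fold changes were 2.01 for Cd274 (adjusted p = 0.00321) and 1.34 for Cd22 (adjusted p = 0.0622), and the calls of Pirb for 5xFAD against WT (-0.63, adjusted p = 0.249) and of Cd22 for Card9-/-5xFAD against Card9-/- (1.18, adjusted p = 0.185) were lost. The 9 libraries above -0.1 hold 1 of 5xFAD, replicate 4, which was the highest of all 16 for both Sirpa and Lag3, and the calls of these genes there (0.60, adjusted p = 0.0683, and 1.26, adjusted p = 0.0053) rest on a group of 1 library. The 7 libraries below -0.1 hold 1 of WT and 1 of Card9-/-, so that the spread of these is assumed from the other groups, and a count of 0 of 10 passing there says little. The log2 fold changes in these 7 were 1.48 for Cd274, 1.33 for Cd22, -1.06 for Pirb and -0.27 for Siglece.

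**Figure D4:**
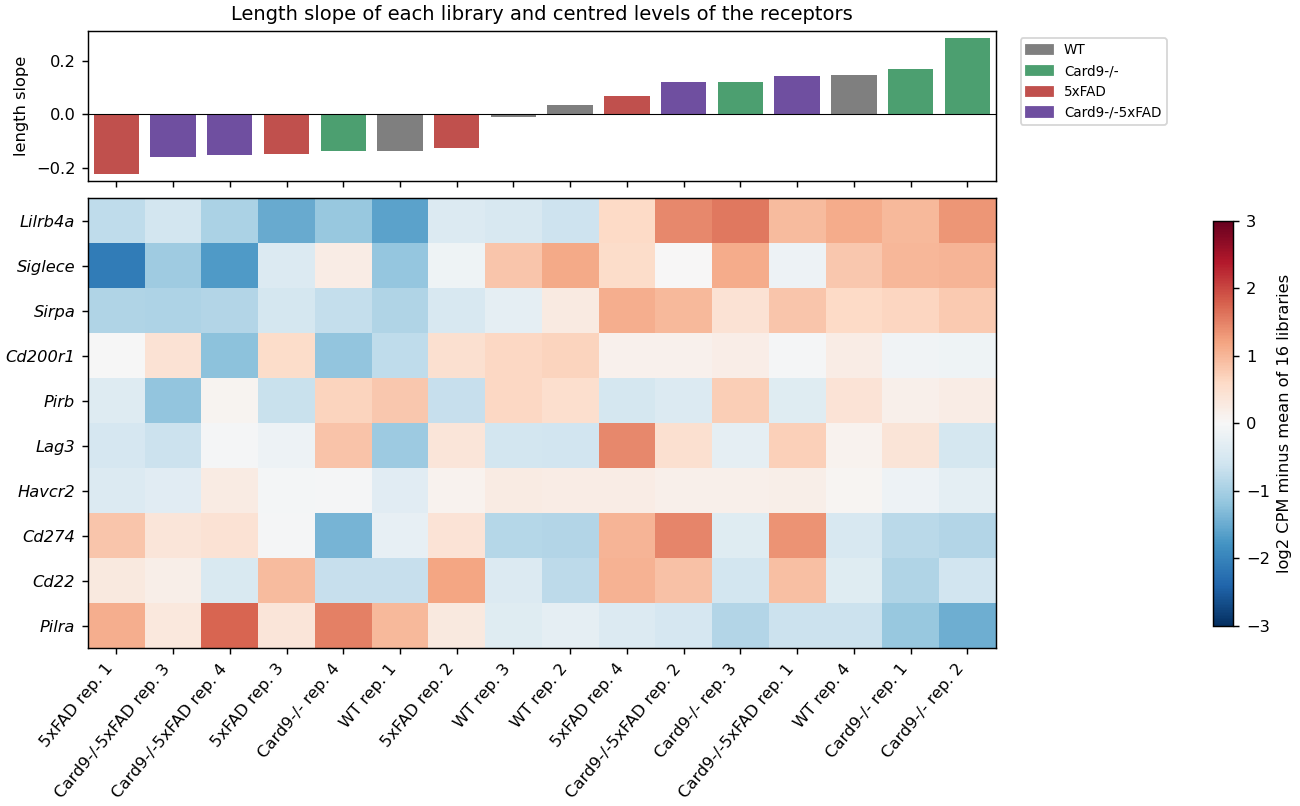
Top, the slope of log2 CPM on log2 exon length in each library, colored by genotype and sorted from lowest to highest. Bottom, log2 CPM of each receptor minus its mean over the 16 libraries, in the same order, where Lilrb4a, Siglece and Sirpa run mostly from low to high along the slope and Pilra from high to low.

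The pathway downstream of the ITIMs was described by lists of phosphatases, docking proteins and kinases. Of 10 phosphatases and docking proteins (Ptpn6 for SHP-1, Ptpn11 for SHP-2, Inpp5d for SHIP-1, Csk, Dok1, Dok2, Dok3, Grb2, Sh2b3 and Ptprc), 1 passed in the averaged transgene contrast, against 11.3% of all genes. This was Dok3, an adaptor that recruits SHIP-1 and Grb2, which fell by 1.14 on the log2 scale (edgeR adjusted p = 0.00314), from 41.5 to 73.1 CPM without the transgenes to 14.9 to 40.5 CPM with them. The log2 fold changes were 0.05 for Ptpn6, 0.30 for Ptpn11 and -0.38 for Inpp5d, none past the threshold. Inpp5d passed with the replicate block (-0.41, edgeR adjusted p = 0.0244). In that fit 5 of the 10 fell, where 41.9% of all genes passed in either direction. The median of the list was -0.28, against -0.15 over all genes. The 7 Src-family, Syk and Tec-family kinases, Lyn, Fgr and Syk among them, phosphorylate ITIMs or carry the opposing activating signal. Of these, only Fgr passed (1 of 7, against 11.3% of all genes), with a rise of 0.80 (edgeR adjusted p = 0.0294). The median of the list was -0.35. With the block 2 of these kinases rose and 4 fell, beside the same 41.9% of all genes. None of the genes of either list passed in a Card9 contrast.

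Among ligands of the receptors and enzymes that make them, 15 of 20 listed genes were tested and 5 rose, against 5.62% of all genes that rose in this contrast, while 0 fell. The median log2 fold change of the list was 0.30. With the block 8 rose and 4 fell, where 41.9% of all genes passed in either direction. Pianp, which encodes a ligand of PILRα, had 27 counts over the 8 libraries without the transgenes (0.107 to 0.981 CPM) and 2.40 to 14.98 CPM in those with them, a log2 fold change of 4.66 (95% interval 3.61 to 5.71, edgeR adjusted p = 1.8e-05). It passed the filter on low counts only through the libraries with the transgenes, so its test leans on the groups where it was high. Pdcd1, the gene of PD-1, to which PD-L1 binds, was 4.05 to 15.8 CPM without and 14.4 to 161 CPM with the transgenes, and rose by 3.30 (adjusted p = 0.00019). Both were lowest among the transgene libraries in Card9-/-5xFAD replicate 4. Apoe, which encodes a lipid carrier described as a ligand of LILRB4, rose by 1.53 (adjusted p = 0.000822). Lgals3, for galectin-3, which binds LAG-3, rose by 1.33 (adjusted p = 0.00135). B2m, the light chain of MHC class I, rose by 1.34 (adjusted p = 0.0423). Cd47 and Cd200 had log2 fold changes of -0.23 and -0.79 and did not pass, and the MHC class I heavy chains H2-K1 and H2-D1 were not analysed here. In a sort of CD11b-bound cells, ligands of neurons and other brain cells are not measured.

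Of 27 other inhibitory or checkpoint receptors, 20 were tested, and 7 rose and 3 fell in the averaged contrast (5.62% and 5.73% of all genes did), with a median log2 fold change of -0.19. Cd5, an inhibitory receptor best known from T cells and B-1 cells, was 0.428 to 1.76 CPM without the transgenes and 7.13 to 12.9 CPM with them, and rose by 3.37 on the log2 scale (edgeR adjusted p = 3.57e-06). Like Pianp, Cd5 would not have passed the filter on low counts but for the libraries with the transgenes, where it was high. Cd72, an ITIM receptor known from B cells, was 1.58 to 22.1 CPM without and 5.61 to 81.2 CPM with the transgenes, and rose by 2.38 (adjusted p = 0.00522). Milr1 rose by 1.58 (adjusted p = 0.00496), the Siglec gene Siglecf by 1.38 (adjusted p = 0.00946), Btla by 1.30 (adjusted p = 0.0419) and Cd300lf by 0.92 (adjusted p = 0.0254). The Siglec gene Siglecg fell by 1.52 (adjusted p = 0.00103) and Pecam1, an adhesion receptor with ITIMs, by 1.31 (adjusted p = 0.00349). Cd244a rose by 0.75 (adjusted p = 0.0692) and Timd4 fell by 1.13 (adjusted p = 0.051), both named after their values were seen. Cd33, the mouse relative of the human Siglec linked to Alzheimer's disease risk, was at -0.61 (adjusted p = 0.106; 0.00427 with the replicate block), also named after its value was seen. With the block 8 of the list rose and 8 fell, where 41.9% of all genes passed in either direction. Cd72 and Milr1 share exon bases with Tesk1 and Polg2, respectively. The T cell genes Cd3e, Cd8a, Trac and Cd3g had at most 2, 3, 12 and 15 counts in any library, and Cd3d had 3 to 28. Nkg7 had 57 to 1243, Ncr1 1 to 177 and Klrb1c 12 to 76. The summed level of the 8 T or NK cell markers was 27.6 to 238 CPM without (median 32.7) and 15.3 to 106 CPM with the transgenes (median 36.3), and 0 of its 4 tested genes passed (2 fell with the block).

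Of 20 activating counterparts and adaptors, 15 were tested, and 2 rose and 2 fell (5.62% and 5.73% of all genes did), with a median log2 fold change of -0.34. Cd200r4, an activating relative of Cd200r1, was 1.56 to 7.72 CPM without the transgenes and 9.61 to 73.2 CPM with them, and rose by 3.47 on the log2 scale (edgeR adjusted p = 3.97e-05), whereas Cd200r1 itself was at 0.09. Trem2, the DAP12-coupled lipid receptor, rose by 1.40 (adjusted p = 0.000947). Lilr4b, the neighbor of Lilrb4a, fell by 0.89 (adjusted p = 0.0156), and Sirpb1a, an activating relative of Sirpa, fell by 1.11 (adjusted p = 0.0455). Tyrobp, the gene of DAP12, was at 1.12 (adjusted p = 0.135; 0.000515 with the replicate block), named after its value was seen. Pira2, an activating relative of Pirb, was at -0.93 (adjusted p = 0.198; 0.0825 with the block), also named after its value was seen, and Pira6, Pira7 and Pira11 were not analysed here. With the block 4 of the list rose and 6 fell, where 41.9% of all genes passed in either direction. Of all genes named from these lists, 8 passed in both separate transgene responses: Pianp, Pdcd1, Apoe, Lgals3, Cd5, Siglecg, Cd200r4 and Trem2. These 8 were named for passing in the averaged contrast, the mean of these responses. Passing in both is thus partly built in. Of all genes tested, 2.09% passed for 5xFAD against WT and 1.97% for Card9-/-5xFAD against Card9-/-. None of the listed genes passed in a Card9 contrast.

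**Figure D5:**
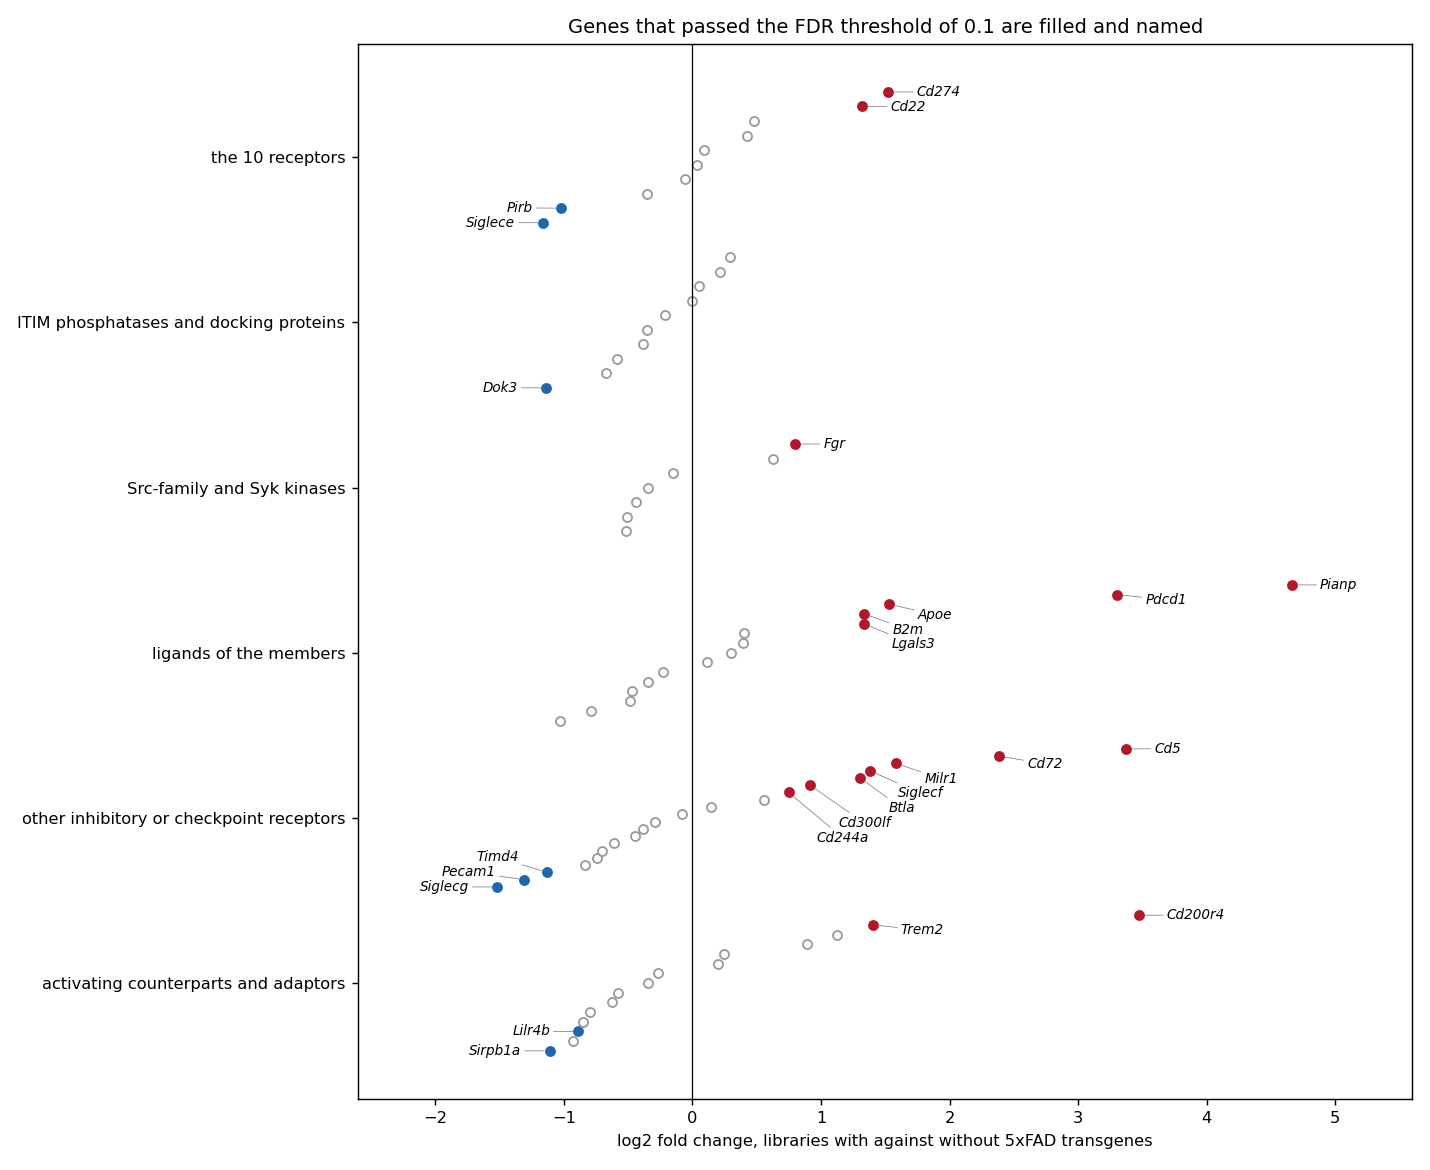
Log2 fold change of each tested gene of the 10 receptors and of 5 lists of related genes (rows) for the transgenes averaged over both Card9 genotypes. Each point is a gene, gray and open where it did not pass an adjusted p of 0.1, red where it rose and blue where it fell, and the largest values are those of Pianp, Cd200r4, Cd5 and Pdcd1.

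Some markers of other myeloid cells that a CD11b sort can hold fell with the transgenes, as Pirb and Siglece did, where 5.73% of all genes fell. Of 6 markers of border-associated macrophages, 4 fell: Mrc1 by 1.24 (edgeR adjusted p = 0.000942), F13a1 by 1.36 (adjusted p = 0.00659), Lyve1 by 1.04 (adjusted p = 0.00783) and Cd163 by 1.30 (adjusted p = 0.0114) on the log2 scale. The summed level of this list was 853 to 1695 CPM without the transgenes (median 1001) and 370 to 1579 CPM with them (median 573), and none of its markers was at 0. Among monocyte markers, Ccr2 fell by 1.31 (adjusted p = 0.0164), and the summed level of the list was 141 to 397 CPM without and 73.0 to 230.2 CPM with the transgenes. Of 7 neutrophil markers, Mpo fell by 2.22 (adjusted p = 0.0717) and Ly6g by 0.88 (adjusted p = 0.0921), with sums of 891 to 6265 CPM and 485 to 5956 CPM. Of 6 dendritic cell markers, Itgae fell by 0.97 (adjusted p = 0.0541) and Zbtb46 by 0.84 (adjusted p = 0.0599), with sums of 72.7 to 274 CPM and 61.7 to 136 CPM. With the replicate block 41.9% of all genes passed in either direction. In that fit 5 of 6 border-associated macrophage, 3 of 5 monocyte, 5 of 7 neutrophil and 4 of 5 tested dendritic cell markers fell. So did 3 of 9 microglia markers, while 1 of 9 rose. Neuron markers summed to at most 17.7 CPM in any library, and 0 of their 3 tested genes passed (2 fell with the block). The part of these cells in the values of Pirb and Siglece was not tested.

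The genes whose pattern over the 16 libraries lay nearest to that of Cd22, by root mean square difference of log2 CPM centered on each gene's mean, were Nab2 (0.287), a corepressor of EGR factors, Il1rn (0.292), the interleukin-1 receptor antagonist, and Tpd52 (0.292). Their averaged log2 fold changes were 1.14, 1.10 and 0.97. This is a description over 16 libraries that share their transgene contrast, with no test.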

How the data were processed

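RNA-Seq data of 16 libraries of CD11b-sorted microglia, 4 per genotype, were grouped by the genotype in the labels. The authors aligned reads to mm10 with HISAT2, filtered them with SAMtools and counted them per gene with HTSeq, and deposited the counts as whole numbers, not normalized. The strand setting of the counting is not given in the sources used here. Depth was 2970148 to 19333325 reads on genes, which sets the precision of the lowest genes.

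Counts were tested in R 4.3.3 with edgeR 4.0.16 (quasi-likelihood, TMM, filterByExpr with a minimum count of 10), with all 16 libraries in one fit of 4 genotypes. Benjamini-Hochberg adjustment ran over 14513 genes, with a threshold of 0.1, the one used in the study. The averaged contrast is the mean of the transgene responses with and without Card9. CPM use TMM library sizes, log2 CPM add a prior count of 2, and exon lengths and positions come from GENCODE M21 (GRCm38). The script was tested on simulated data.

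Named genes are the 10 receptors, up to 8 called genes per list by lowest adjusted p, and the 3 genes nearest to a receptor called in both transgene responses. A few of the listed genes are not reported here. The receptors and lists were chosen with earlier results of these data known. Counts may be divided between close paralogs (Lilrb4a and Lilr4b, Pirb and Pira, Sirpa and Sirpb1, Pilra and Pilrb). Alternatives were DESeq2 1.42.0 or its size factors, other filters on low counts, only the groups compared, a replicate block, 1 surrogate variable (sva 3.50.0), an adjusted p of 0.05 and leaving out each library. The length slope as a covariate, fits on the libraries above or below a slope of -0.1 alone and leaving out the 3 libraries farthest from the others were chosen after seeing the data. So was a block of equal replicate numbers within each Card9 genotype, alone and with the length slope. The labels do not say that numbers pair libraries, but deviations from the genotype means correlated at 0.27 to 0.71 in the 4 pairs of WT and 5xFAD and at 0.13 to 0.73 in the 4 pairs of Card9-/- and Card9-/-5xFAD, and in 15 of 24 pairs of equal number over all genotypes (-0.71 to 0.73) they were above 0.1. No 2 libraries of a genotype were copies (chi-square divided by its degrees of freedom was at least 6.92 in the 24 pairs).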

Additional observations from a re-analysis of the deposited data

Results flagged for a closer look

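Within groups of 4 libraries, 3 single values stood apart from the others by Dixon's test at 95%, out of 40 combinations of receptor and genotype, and chance alone flags about 1 in 20 groups. Pilra was 177 CPM in WT replicate 1, where the other WT libraries had 56.9 to 74.3 CPM. Pilra was 257 CPM in Card9-/- replicate 4, where the others had 32.3 to 48.6 CPM. Sirpa was 2180 CPM in 5xFAD replicate 4, where the others had 547 to 732 CPM. WT replicate 1 and Card9-/- replicate 4 were among the 7 libraries with a length slope below -0.1 (-0.14 in both), and 5xFAD replicate 4 was the only library of its genotype above it (0.07).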

How the results depend on the processing

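The number of receptors called for Card9-/- against WT, for Card9-/-5xFAD against 5xFAD and for the interaction was 0 under every alternative. In the averaged transgene contrast it was 3 to 6, and 3 to 5 when 1 library was left out, with the exception of the 7 libraries with a length slope below -0.1 alone, where it was 0, and of the replicate block within each Card9 genotype with the length slope as a covariate, where it was 2 (Cd274 and Cd22). For 5xFAD against WT it was 1 (Cd22) with no filter on low counts and 0 in those 7 libraries, 1 to 3 when 1 library was left out, 5 with the block within each Card9 genotype, and 2 or 3 otherwise. For Card9-/-5xFAD against Card9-/- it was 1 with no filter, with edgeR on only the groups compared, with 1 replicate block over all genotypes, with the block and the length slope, or at an adjusted p of 0.05, and 0 in those 7 libraries. It was 4 there with 1 surrogate variable, without the 3 libraries farthest from the others (WT replicate 1, Card9-/- replicate 4 and Card9-/-5xFAD replicate 4) or in the 9 libraries above -0.1, 5 with the block within each Card9 genotype, and 1 to 3 when 1 library was left out. Cd274, Cd22 and Pirb stayed called in the averaged contrast whichever single library was left out, and Siglece lost its call in 10 of 16 such fits, with no filter (log2 fold change -1.14, edgeR adjusted p = 0.121) and at an adjusted p of 0.05. The counts of all genes called ran from 75 (slope below -0.1) to 6078 (block within each Card9 genotype, and 761 with the length slope added) beside 1647 in the averaged contrast, from 0 to 2322 beside 304 for 5xFAD against WT, and from 0 to 2966 beside 286 for Card9-/-5xFAD against Card9-/-. DESeq2 on all libraries gave 2460, 565 and 812.

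Log2 fold changes that turned direction were those of genes that did not pass in the contrast concerned, apart from Sirpb1a and Timd4, which were 0.10 and 0.016 in the averaged contrast in the 7 libraries. In that contrast Sirpa was 0.0011 with DESeq2 size factors, 0.030 with at least 10 counts in every library, 0.19 with 1 surrogate variable, 0.44 with the length slope as a covariate, 0.60 in the 9 libraries and 0.27 in the 7. Lilrb4a was 0.13 with 1 surrogate variable, 0.47 with the covariate, 0.17 in the 9 and 0.85 in the 7 libraries. Pilra was -0.17 with the covariate and -0.17 in the 7 libraries (-0.33 and -0.14 for 5xFAD against WT, -0.0041 and -0.19 for Card9-/-5xFAD against Card9-/-), Cd200r1 was -0.15 in the 9, and Havcr2 was -0.024 without the 3 farthest. Cd47 was 0.016 with the covariate and 0.57 in the 7 libraries, Cd33 was 0.092 in the 7, Cd200 was 0.39 in the 9, and Ptpn6 was -8.5e-05 without the 3 farthest. Card9 itself was 0.24 for Card9-/- against WT in the 7 libraries. In the 7 libraries Siglece was 0.78 for 5xFAD against WT, Lag3 was -0.99 for Card9-/-5xFAD against Card9-/-, and Cd274 was -0.12 for Card9-/-5xFAD against 5xFAD. For Card9-/- against WT, Siglece was -0.10 with the covariate, and Cd274 was 0.068 without the 3 farthest and 0.072 in the 9 libraries. For Card9-/-5xFAD against 5xFAD, Pirb was -0.048 without the 3 farthest. With the block and the covariate Lilrb4a was 0.53, Sirpa 0.40 and Ptpn11 -0.12 in the averaged contrast, Pilra -0.015 for 5xFAD against WT and Lag3 -0.018 for Card9-/-5xFAD against Card9-/-. Leaving out 1 library gave, in the averaged contrast, -0.027 to 0.13 for Havcr2, -0.029 to 0.28 for Cd200r1, -0.60 to 0.033 for Lilrb4a, -0.23 to 0.069 for Sirpa, -0.062 to 0.18 for Ptpn6 and -1.11 to 0.50 for Cd200, which was above 0 only without Card9-/- replicate 4. It gave -0.20 to 0.30 for Lag3 and -0.27 to 1.70 for Pilra (without Card9-/-5xFAD or Card9-/- replicate 4) in Card9-/-5xFAD against Card9-/-, -0.069 to 0.46 for Siglece in Card9-/- against WT, and -0.040 to 0.34 for Pirb and -0.50 to 0.085 for Lag3 in Card9-/-5xFAD against 5xFAD. The cause was not tested. Among listed genes, single calls were lost for Btla (without 5xFAD replicate 3), Sirpb1a (without Card9-/- replicate 1 or 5xFAD replicate 4), Timd4 (without WT replicate 2 or Card9-/-5xFAD replicate 3) and Itgae (without any 1 of 4 libraries), and calls of Cd244a, Mpo, Ly6g and Zbtb46 were lost without any 1 of 9, 9, 10 and 6 libraries. Calls were gained for Tyrobp (without WT replicate 1, Card9-/- replicate 4 or 5xFAD replicate 4), Cd33 (without WT replicate 1 or Card9-/- replicate 4) and Pira2 (without WT replicate 1), with adjusted p from 0.0171 to 0.0916. Across Card9 genotypes, deviations of libraries of equal number correlated from -0.71 to 0.61, and the labels do not say whether they were paired. With 1 replicate block over all genotypes, 2 receptors were called with Card9 present, 1 with Card9 deleted and 4 in the averaged contrast, and Cd22 missed the threshold with Card9 deleted (adjusted p = 0.113). The block within each Card9 genotype changed no other call of the receptors than those given in the report. With the length slope added to it, the averaged calls of Cd244a, Timd4, Nab2, Il1rn, Fgr, Pecam1, Cd300lf, Btla, Lilr4b, Sirpb1a, Cd163, Ccr2, Mpo, Ly6g, Itgae and Zbtb46 were lost. Depth limits the lowest genes, such as Pianp, with 1 to 11 counts per library without the transgenes, and Mpo, with 0 counts in the lowest library.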
